A study of Mus musculus with 31 samples.

Results

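The Dlk1-Meg3 domain is an imprinted stretch of distal mouse chromosome 12, and 5 of its genes are described here: the paternally expressed gene Dlk1, the maternally expressed noncoding RNA genes Meg3, Rian and Mirg, and Begain, which lies beside them. The 5 were taken by symbol from the deposited allele-specific tables, which held 17484 gene features in all. Each gene was listed at all 5 stages, on its own and never under a name joined with another gene.

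At imprinted loci 1 parental allele is silenced by marks set in the germline. In this domain a control region between Dlk1 and Meg3 is methylated on the paternal chromosome, and the unmethylated maternal copy is needed for the noncoding RNAs to be made and for Dlk1 to be silent. Meg3, Rian and Mirg lie one after the other on the same strand, Rian as host of small nucleolar RNAs and Mirg as host of many microRNAs, and all are abundant in brain. Dlk1 encodes a membrane protein of the Notch ligand family that lacks the domain by which classical ligands bind the receptor, and Begain encodes a protein of the postsynaptic density.

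RNA was sequenced from 25 samples of hybrids between the mouse strains C57BL/6 (B6) and JF1. The cross BJ1 had a B6 mother and a JF1 father, and the cross JB6 had the reverse. Undifferentiated embryonic stem cells (ESC) and the same cells after 12 days (d12) and 21 days (d21) of differentiation towards cortex gave 2 libraries per cross and stage, all of them male. The hybrid stem cells came from blastocysts whose B6 parent carried an Oct4-GFP transgene, and the labels name no more than 1 line per cross. Differentiation took place in a defined medium, to which the Hedgehog pathway inhibitor cyclopamine was added early on. Cortex was taken in vivo at E13.5, with 3 libraries per cross, and at birth (P0), with 4 BJ1 and 3 JB6 libraries. In vivo libraries were female except 1 BJ1 library at each of these ages. Nothing in the labels says that same-group libraries came from separate cultures or litters, so p-values reach no further than these samples. The edgeR test used below also shares its estimate of the spread over all genes. With few libraries per group, a very small p-value therefore does not measure the spread of that gene alone.

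Sequenced bases that fell on a strain difference were counted on the sense strand of each gene, separately for the 2 parental alleles, and are called read bases here. The libraries held 5192382 to 8618253 such read bases, and levels are given as counts per 1000000 of them (CPM), so that they are comparable between libraries for 1 gene but not between genes. The maternal share is the maternal count over both. One ESC library, JB6 replicate 2, stood apart: its summed level of 11 mesendoderm and other lineage markers was 1040 CPM against 37.1 to 102 in the other ESC libraries, and its pluripotency markers summed to 2307 CPM against 3925 to 4721. Markers of the labelled tissue were also weak in culture. Of 9 dorsal progenitor markers tested at d12 against E13.5, 1 was higher and 7 were lower, with a median log2 difference of -3.05 (edgeR). Of 10 neuron markers tested at d21 against P0, all 10 were lower, with a median of -3.75 (edgeR). Of all genes, 37.4% were higher and 43.2% lower in the first contrast, and 40.3% and 41.1% in the second.

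The start of the maternally expressed RNAs and the small RNAs they hold are shown because the results turn on these transcripts. RefSeq (build GRCm38.p6, a later build than that of the counts) places the genes on chromosome 12 in the order Begain (chr12:109032181-109068242), Dlk1 (chr12:109452485-109463336), Meg3 (chr12:109540996-109571729), Rian (chr12:109603945-109661716) and Mirg (chr12:109734981-109749458). It also gave a window of 250 bases before to 50 after the annotated start for all 5 genes. CG pairs are in capitals, since this is the letter pair that DNA methylation marks.
Meg3, chr12:109540746-109541045, plus strand: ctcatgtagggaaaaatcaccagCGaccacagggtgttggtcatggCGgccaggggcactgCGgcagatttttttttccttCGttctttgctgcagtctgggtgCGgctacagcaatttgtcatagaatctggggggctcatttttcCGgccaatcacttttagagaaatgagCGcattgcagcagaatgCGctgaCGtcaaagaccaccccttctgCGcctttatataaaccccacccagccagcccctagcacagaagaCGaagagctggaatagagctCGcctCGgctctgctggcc
Rian, chr12:109603695-109603994, plus strand: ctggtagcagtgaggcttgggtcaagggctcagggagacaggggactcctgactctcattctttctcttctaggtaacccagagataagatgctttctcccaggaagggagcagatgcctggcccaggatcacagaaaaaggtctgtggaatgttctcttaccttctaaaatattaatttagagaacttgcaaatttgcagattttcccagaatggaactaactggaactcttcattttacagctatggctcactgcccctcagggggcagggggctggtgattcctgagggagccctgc
RefSeq gave Meg3 a second window, chr12:109545148-109545447, with 1 CG pair and no TATAAA. The Meg3 window printed above held 13 CG pairs, and a TATAAA on the plus strand began 25 bases before the start. The motif TATAAA, searched on both strands, was found in 13.6% of all 32851 RefSeq windows of this length, which held a median of 7 CG pairs. The Rian window held none, as was true of 5.43% of windows. The windows of Dlk1 and Mirg held 9 and 10 CG pairs, and the 5 windows of Begain held 34 to 46.

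RefSeq placed 3 mature microRNAs inside Meg3, 6 inside Rian and 19 inside Mirg on the plus strand, from 15 microRNA genes. Mature microRNAs are too short for these libraries, so the counts below concern the host RNAs only. The seed, bases 2 to 8, is in capitals. The first pair lies in Mirg and is the only pair among the 28 with the same seed, the next 3 also lie in Mirg, and the last 2 lie in Rian.
miR-453, chr12:109735669-109735692, plus strand: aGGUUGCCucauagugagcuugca
miR-496a-5p, chr12:109739132-109739152, plus strand: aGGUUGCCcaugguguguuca
miR-410-3p, chr12:109743764-109743784, plus strand: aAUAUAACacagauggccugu
miR-369-3p, chr12:109743466-109743486, plus strand: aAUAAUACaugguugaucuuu
miR-377-3p, chr12:109740553-109740574, plus strand: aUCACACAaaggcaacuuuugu
miR-370-3p, chr12:109618305-109618326, plus strand: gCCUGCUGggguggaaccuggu
miR-341-3p, chr12:109611556-109611576, plus strand: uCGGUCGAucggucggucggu

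The first question of the design is which parental allele each gene used. Meg3, Rian and Mirg came mostly from the maternal chromosome in all 25 libraries, Dlk1 mostly from the paternal one in all 21 libraries outside ESC, and Begain from both. For Dlk1 the tissue libraries held only 1 to 37 read bases each, below the minimum for the test. Of the domain genes with enough read bases to test, a mean of 20 per library, 3 of 3 passed for parental bias in ESC, 4 of 5 at d12, 4 of 5 at d21, 3 of 4 at E13.5 and 3 of 4 at P0. Among all genes tested, 1.4%, 1.78%, 1.38%, 0.49% and 0.548% passed at these stages. The test was edgeR's quasi-likelihood test with a term for each library, a strain term and a parental term, at a Benjamini-Hochberg adjusted p of 0.05.

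**Figure D1:**
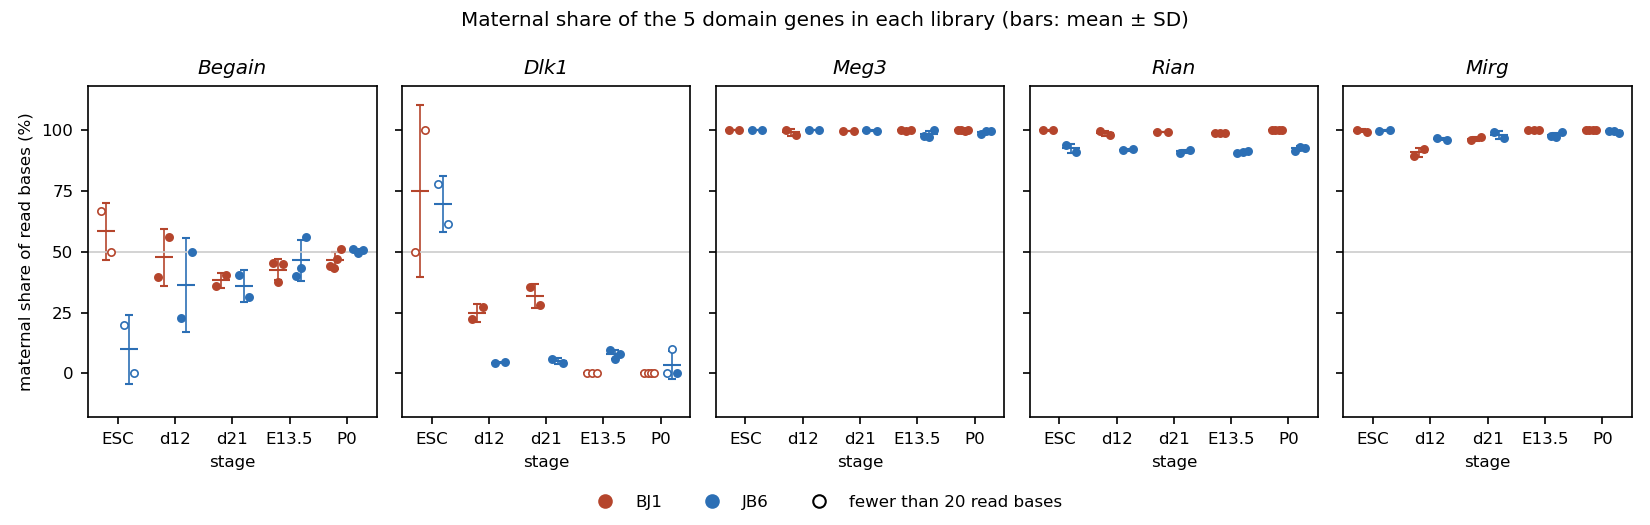
Maternal share of read bases, in percent, of each gene in each library, by stage and cross, with the mean and SD of each group. Open points rest on fewer than 20 read bases. Meg3, Rian and Mirg lie between 89.4% and 100% throughout, and Dlk1 in the 4 cultured BJ1 libraries of d12 and d21 lies between 22.3% and 35.4% against 4.19% to 5.95% in JB6.

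Dlk1, the protein-coding gene of the set with the clearest paternal use, differed between the crosses in culture. At d12 its maternal share was 22.3% and 27.4% in the BJ1 libraries and 4.19% and 4.54% in the JB6 libraries. At d21 it was 35.4% and 28.3% in BJ1 and 5.95% and 4.41% in JB6. The crosses did not overlap at either stage, and the counts behind each share were 1134 to 4046 read bases.
Across both crosses the maternal allele was lower than the paternal one by a log2 difference of -3.02 ± 0.07 (SE) at d12, where the adjusted p was too small for the software to represent, and by -2.63 ± 0.08 at d21 (adjusted p = 1.68e-17, edgeR). Dlk1 thus passed as paternal in both stages. The strain term, B6 over JF1 in both crosses, was 1.42 ± 0.08 at d12 (adjusted p = 2.85e-71, edgeR) and 1.53 ± 0.08 at d21 (adjusted p = 3.46e-13, edgeR). Expressed as levels, the maternal allele of Dlk1 stood at 54.9 ± 8.7 CPM (SD, n = 2) in BJ1 and 7.77 ± 0.16 CPM (SD, n = 2) in JB6 at d12, while the paternal allele stood at 166 ± 6.0 CPM and 171 ± 14 CPM. At d21 both alleles were higher in BJ1 without overlap, the maternal one at 168 ± 46.9 CPM against 12.3 ± 6.04 CPM and the paternal one at 355 ± 17.8 CPM against 218 ± 61.9 CPM (SD, n = 2 each). Paternal levels were thus alike in the crosses at d12 only, and whether the difference in maternal share goes with the cell line or with the strain of the mother cannot be told apart, with 1 line named per cross.

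In vivo, Dlk1 was close to the limit of counting. The BJ1 libraries of E13.5 held 0 maternal of 8, 3 and 5 read bases, and the JB6 libraries held 2 of 21, 2 of 34 and 3 of 37. At P0 the BJ1 libraries held 0 maternal of 1, 2, 3 and 2 read bases, and the JB6 libraries held 0 of 5, 1 of 10 and 0 of 22. The few read bases were nearly all paternal, but the 0 of 16 summed over BJ1 at E13.5 allows a maternal share of up to 18.8%, counting error only.
With no minimum count Dlk1 passed as paternal at E13.5 (log2 difference -4.47, adjusted p = 2.17e-08, edgeR) and at P0 (-4.41, adjusted p = 0.00397, edgeR). In ESC, 2, 7, 9 and 13 read bases gave maternal shares of 50%, 100%, 77.8% and 61.5%, and Dlk1 did not pass without a minimum (log2 difference 1.86, adjusted p = 0.821, edgeR). With no minimum its parental bias at d12 was more paternal than in ESC by -4.93 (adjusted p = 0.00141, edgeR). That contrast rests on 31 ESC read bases in all.

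Begain did not pass for parental bias at any of the 4 stages where it was tested. Its maternal share was 42.1% ± 14.6 (SD, n = 4) at d12, 37.0% ± 4.4 (SD, n = 4) at d21, 44.5% ± 6.3 (SD, n = 6) at E13.5 and 48.1% ± 3.3 (SD, n = 7) at P0. All 4 means lay below 50%, and the adjusted p was 0.929, 0.344, 0.961 and 0.929 in that order (edgeR). The d21 difference was -0.74 ± 0.27 on the log2 scale, with an unadjusted p of 0.00913 (edgeR), and all 4 d21 libraries lay between 31.3% and 40.4%. In ESC only 3 to 8 read bases were counted per library.

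Meg3, the first of the noncoding RNAs in the domain, was almost wholly maternal. Its maternal share was 99.9% ± 0.082 (SD, n = 4) in ESC, 99.5% ± 0.97 (SD, n = 4) at d12, 99.6% ± 0.15 (SD, n = 4) at d21, 99.0% ± 1.3 (SD, n = 6) at E13.5 and 99.5% ± 0.55 (SD, n = 7) at P0. The lowest value in any library was 97.1%, in a JB6 library of E13.5. The adjusted p for parental bias was 7.38e-23 in ESC, 1.69e-204 at d12, 2.88e-32 at d21, 4.03e-10 at E13.5 and 4.79e-05 at P0 (edgeR). In contrast, limma on log2 ratios gave an adjusted p of 0.231 at d12 and 0.0631 at E13.5 with every library maternal.
The paternal remainder was uneven at P0, where depth was highest. BJ1 libraries held 28, 21, 30 and 31 paternal read bases of 10619 to 14158 in all, and JB6 libraries held 204, 90 and 112 of 11895 to 20542. As levels, the paternal allele stood at 4.61 ± 0.88 CPM (SD, n = 4) in BJ1 and 20.9 ± 12.6 CPM (SD, n = 3) in JB6, without overlap. The strain term at P0 was 0.98 ± 0.32 (adjusted p = 0.0558, edgeR) and did not pass, although it did without JB6 replicate 1 (0.67, adjusted p = 5.16e-11, edgeR) and in DESeq2 (0.945, adjusted p = 0.000946). At E13.5 it passed (1.79 ± 0.63, adjusted p = 0.0365, edgeR), resting on 24 paternal read bases in JB6 and 2 in BJ1, and it no longer passed in DESeq2 (adjusted p = 0.0763) or without any 1 of 3 libraries (0.105 to 0.135, edgeR). At d12 the term pointed to JF1 (-2.64 ± 0.89, adjusted p = 0.0109, edgeR), but it rested on 3 paternal read bases, all in BJ1 replicate 2, and it was -0.68 without that library (adjusted p = 1, edgeR).

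Rian differed between the crosses at every stage. In the 13 BJ1 libraries its maternal share was 97.8% to 99.9%, and in the 12 JB6 libraries it was 90.6% to 93.8%. In ESC the shares were 99.7% and 99.8% in BJ1 against 93.8% and 90.9% in JB6. At d12 they were 99.4% and 97.8% against 91.6% and 92.1%, and at d21 they were 99.2% and 99.1% against 90.7% and 91.6%. The same step was present in culture and in tissue.
At E13.5 the BJ1 libraries had 98.8%, 98.5% and 98.7%, and the JB6 libraries 90.6%, 91.1% and 91.3%. At P0 the shares ran from 99.8% to 99.9% in BJ1 and from 91.5% to 93.1% in JB6. Read bases per library numbered 995 to 10563. Rian passed as maternal at all 5 stages, with log2 differences of 6.15 ± 0.13 in ESC, 4.80 ± 0.07 at d12, 5.09 ± 0.06 at d21, 4.78 ± 0.06 at E13.5 and 6.55 ± 0.04 at P0 (SE, adjusted p at most 3.58e-08, edgeR), but at d12 limma on log2 ratios gave an adjusted p of 0.236.

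The allele that is maternal in BJ1 and paternal in JB6 is that of B6, so the strain term carries this step. For Rian it was 2.57 ± 0.18 in ESC, 1.30 ± 0.11 at d12, 1.74 ± 0.09 at d21, 1.44 ± 0.08 at E13.5 and 2.94 ± 0.06 at P0 on the log2 scale (adjusted p at most 7.95e-06, edgeR), and only limma at d12 failed to call it (1.43, adjusted p = 0.165). Over all genes the strain term passed in 44.6% of tests in ESC, 35.9% at d12, 34.4% at d21, 45.9% at E13.5 and 48.2% at P0, so a strain call for 1 gene is common here. By this count 1 of 3 domain genes tested passed in ESC, 4 of 5 at d12, 2 of 5 at d21, 2 of 4 at E13.5 and 2 of 4 at P0. Meg3 and Mirg did not show this step at every stage. Their strain terms lay between -2.64 and -0.07 in ESC, d12 and d21, and at E13.5 they were 1.79 for Meg3 and 1.63 for Mirg (adjusted p = 0.0365 and 0.0707, edgeR). Meg3, with up to 55 covered strain differences, and Rian, with 22 or 23, were counted over different numbers of positions.

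Mirg, at the far end of the noncoding RNAs, was maternal throughout and least so at d12. Its share in ESC was 100% and 99.1% in BJ1 and 99.6% and 100% in JB6, on 189 to 1017 read bases. At d12 it was 89.4% and 92.1% in BJ1 and 96.6% and 95.8% in JB6, on 139 to 505 read bases. At d21 it was 95.8% and 96.9% in BJ1 and 99.0% and 96.8% in JB6. Each of the 4 d12 libraries lay below every ESC library.
In vivo the BJ1 libraries held 0 paternal read bases at both ages, of 175 at E13.5 and 473 at P0, which allows a paternal share of up to 1.71% and 0.634%. JB6 libraries had maternal shares of 97.1% to 99.0% at E13.5 and 98.9% to 99.6% at P0. Mirg passed as maternal at all 5 stages (adjusted p at most 5.81e-18, edgeR), although limma on log2 ratios gave an adjusted p of 0.294 in ESC. Its strain term leaned towards JF1 at d12 (-0.67 ± 0.21, adjusted p = 0.00703, edgeR) and towards B6 at P0 (1.497 ± 0.62, adjusted p = 0.0451, edgeR). The d12 call was lost in DESeq2 (adjusted p = 0.0702) and without BJ1 replicate 1 or JB6 replicate 2 (0.170 and 0.0532, edgeR). The P0 call was lost with the replicate block (adjusted p = 0.106, edgeR), with any BJ1 library left out (0.0721 to 0.0879, edgeR) and without JB6 replicate 3 (0.162, edgeR).

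The design also asks how parental use changed over time and between culture and tissue. Joint fits over the 5 stages gave the difference of the parental terms. At d12 against ESC, 2 of 3 domain genes tested passed, beside 0.341% of all genes: Mirg fell by 4.04 ± 0.46 on the log2 scale (adjusted p = 1.34e-07, edgeR) and Rian fell by 1.34 ± 0.30 (adjusted p = 0.0303, edgeR). The paternal level of Mirg was 0.287 ± 0.344 CPM (SD, n = 4) in ESC and 2.28 ± 0.91 CPM (SD, n = 4) at d12, while its maternal level was 93.9 ± 63.7 CPM and 35.9 ± 14.3 CPM. Thus less maternal and more paternal RNA of Mirg was counted at d12. For Rian the JB6 shares overlapped, at 91.6% and 92.1% at d12 and 93.8% and 90.9% in ESC. Its BJ1 shares did not, at 99.4% and 97.8% against 99.7% and 99.8%. The call for Rian did not survive the replicate block (adjusted p = 0.0694, edgeR), a fit of the 2 stages alone (0.709, edgeR) or the loss of any 1 of 5 libraries (0.0635 to 0.764, edgeR). The value farthest from the main one was -0.72, without BJ1 replicate 2 of d12, the library with the highest paternal share of Rian in BJ1.

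At d21 against d12, 0 of 5 domain genes passed, beside 0.0495% of all genes, with unadjusted p under 0.05 for Dlk1 (0.00987) and Mirg (0.00135) (edgeR). At P0 against E13.5, 1 of 4 passed, beside 0.136% of all genes: the parental term of Rian was 1.77 ± 0.20 higher at P0 (adjusted p = 9.85e-07, edgeR). Mirg is among the 4, but its difference of 1.27 had an SE of 6602, as BJ1 tissue held no paternal read base of Mirg. That test could not tell a change in Mirg from none. In BJ1 the paternal level of Rian was 3.29 ± 0.155 CPM (SD, n = 3) at E13.5 and 1.29 ± 0.475 CPM (SD, n = 4) at P0, while its maternal level was 246 ± 28.6 CPM and 973 ± 79.9 CPM. In JB6 both alleles had higher levels at P0, the paternal one with 27.8 ± 5.13 CPM (SD, n = 3) at E13.5 and 90.1 ± 11.6 CPM (SD, n = 3) at P0, and the maternal share was 91.0% ± 0.344 and 92.4% ± 0.845. The paternal level thus went in opposite directions in the 2 crosses.
Culture was compared with tissue at like steps. At d12 against E13.5, 1 of 4 passed, beside 0.912% of all genes: Mirg was less maternal in culture by -3.27 ± 0.69 (adjusted p = 0.00392, edgeR). At d21 against P0, 2 of 4 passed, beside 0.909% of all genes: Mirg by -3.25 ± 0.72 (adjusted p = 0.00699, edgeR) and Rian by -1.47 ± 0.25 (adjusted p = 0.000185, edgeR). For Mirg these sizes depend on the prior count, since BJ1 tissue held no paternal read base, and with counts divided by 3 neither passed (adjusted p = 0.235 and 0.219, edgeR). At d21 against P0, Mirg also missed the threshold with the replicate block (adjusted p = 0.0748, edgeR) and without JB6 replicate 2 of d21 (0.157, edgeR), and Rian without BJ1 replicate 2 of d21 (0.0807, edgeR). The maternal shares of Rian in JB6 overlapped, at 90.7% and 91.6% at d21 and 91.5% to 93.1% at P0. Those in BJ1 did not, at 99.2% and 99.1% against 99.8% to 99.9%. Meg3 passed in none of the 5 contrasts (adjusted p = 0.975 to 0.999, edgeR). Its SE was 0.79 at P0 against E13.5, 1.13 at d21 against P0 and 2.43 to 2.63 in the other contrasts. With so few paternal read bases these tests could not tell a stable parental use of Meg3 from a change of such size.

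Total RNA of the domain was compared next, as the sum of both alleles. Dlk1 was low in stem cells and tissue and high in culture, Meg3 and Rian were highest at P0, Mirg was highest in ESC, and Begain was highest at P0. In these bulk samples, fewer cells of a type and less RNA per cell cannot be told apart. Most genes changed between stages, so the counts that passed are to be read against 78% of genes at d12 against ESC, 53.3% at d21 against d12, 76.7% at P0 against E13.5, 80.6% at d12 against E13.5 and 81.4% at d21 against P0. Of the domain genes, 5 of 5, 3 of 5, 4 of 4, 3 of 5 and 4 of 5 passed in these contrasts, which is near the background. Dlk1 entered the contrasts of culture with ESC and tissue, and Begain that with ESC, only through culture, where they were higher. The median log2 difference of all genes at d12 against E13.5 was -0.12, and at most 0.06 in size in the other 4 contrasts.

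**Figure D2:**
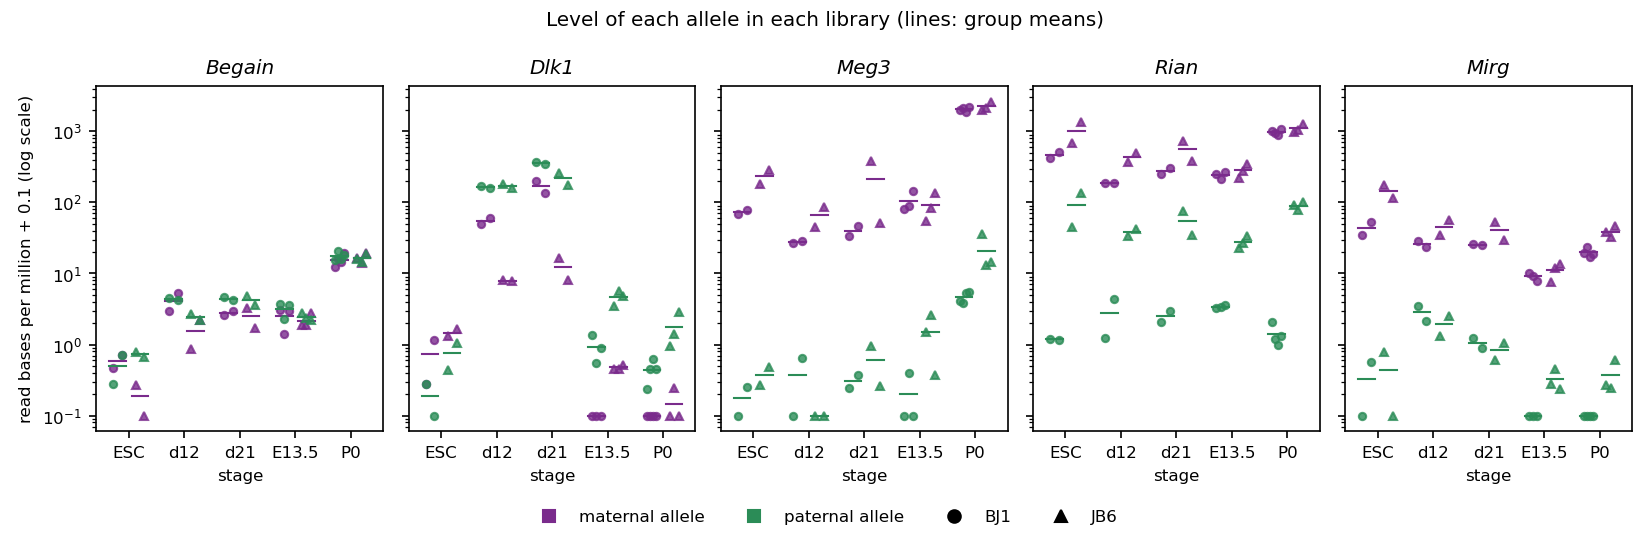
Level of the maternal and the paternal allele of each gene in each library, in CPM plus 0.1 on a log scale, by stage and cross, with lines at group means. The paternal allele of Dlk1 is at like levels in both crosses at d12 and higher in BJ1 at d21, its maternal allele is higher in BJ1 at both, and the paternal signal of Rian is higher in every JB6 library than in any BJ1 library.

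Dlk1 had the widest range. Its level was 1.37 ± 0.898 CPM (SD, n = 4) in ESC, 199.8 ± 26.0 CPM (SD, n = 4) at d12, 377 ± 178 CPM (SD, n = 4) at d21, 2.90 ± 2.39 CPM (SD, n = 6) at E13.5 and 0.927 ± 0.936 CPM (SD, n = 7) at P0. In order of level, P0, ESC and E13.5 overlapped, and d12 and d21 overlapped in JB6. Dlk1 rose by 7.13 ± 0.25 on the log2 scale at d12 against ESC (adjusted p = 3.87e-16, edgeR) and by 0.81 ± 0.16 at d21 against d12 (adjusted p = 0.000186, edgeR). It was higher in culture than in tissue by 6.67 ± 0.20 at d12 against E13.5 (adjusted p = 3.15e-17, edgeR) and by 8.78 ± 0.21 at d21 against P0 (adjusted p = 5.41e-19, edgeR). The minimum count for levels was taken over both stages together, so Dlk1 entered the contrasts with ESC and tissue only through culture. Its mean was 7.75 read bases per library in ESC, 18 at E13.5 and 6.43 at P0, so the sizes of these differences rest on few read bases. The sum over a mixed list of vascular, meningeal, blood and microglial markers was also higher in culture. The 10 listed vascular, meningeal, blood and microglial genes present in the tables summed to 1611 to 2522 CPM at d12 and 7142 to 11155 CPM at d21 but to 58.1 to 960.2 CPM at E13.5 and 224 to 347 CPM at P0. Of all genes, 37.4% were higher and 43.2% lower at d12 against E13.5, and 40.3% and 41.1% at d21 against P0. Of the 10 markers, 5 were higher and 3 lower at d12 against E13.5, and 7 were higher and 2 lower at d21 against P0. Within a single stage, 9 of these markers met the minimum at d12, 9 at E13.5 and 9 at P0. Col1a1, a fibrillar collagen gene among them, was higher by 4.61 ± 0.28 at d12 against E13.5 (adjusted p = 2.51e-12, edgeR) and by 7.90 ± 0.27 at d21 against P0 (adjusted p = 1.17e-16, edgeR). Among the lower ones was Cx3cr1, a microglial receptor gene, with -4.45 ± 0.47 at d12 against E13.5 (adjusted p = 3.38e-08, edgeR) and -0.97 ± 0.29 at d21 against P0 (adjusted p = 0.00493, edgeR). The part of these cells in the Dlk1 level was not tested.

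At E13.5 Dlk1 was also unequal between the crosses, at 1.26, 0.442 and 0.786 CPM in BJ1 and 3.73, 6.01 and 5.15 CPM in JB6, without overlap. It fell below the minimum of 20 read bases. With no minimum, BJ1 was lower by -2.48 on the log2 scale (adjusted p = 0.000829, edgeR). The vascular, meningeal, blood and microglial markers summed to 58.1 to 273 CPM in the BJ1 libraries and 478 to 960.2 CPM in the JB6 libraries, and the mesendoderm and other lineage markers to 3.24 to 9.43 CPM and 27.0 to 34.3 CPM. These are sums: of the single genes, 2 of 9 tested on the first list passed as lower in BJ1, Col1a2 (-2.46 ± 0.47, adjusted p = 0.00831, edgeR) and the endothelial gene Pecam1 (-1.17 ± 0.23, adjusted p = 0.00904, edgeR), and 0 of 2 tested on the second list passed. Over all genes, 1.91% passed as lower in BJ1 at E13.5. The part of these markers in the Dlk1 difference was not tested.

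Meg3 was lowest at d12 and highest at P0. Its level was 152.6 ± 101 CPM (SD, n = 4) in ESC, 46.7 ± 27.9 CPM (SD, n = 4) at d12, 128 ± 168 CPM (SD, n = 4) at d21, 98.9 ± 34.7 CPM (SD, n = 6) at E13.5 and 2148 ± 239 CPM (SD, n = 7) at P0. Only P0 stood clear of the other stages, whose ranges overlapped. Meg3 fell by 1.79 ± 0.38 at d12 against ESC (adjusted p = 0.000254, edgeR) and rose by 4.52 ± 0.34 at P0 against E13.5 (adjusted p = 1.19e-10, edgeR). It was lower in culture by -1.13 ± 0.35 at d12 against E13.5 (adjusted p = 0.00637, edgeR) and by -4.55 ± 0.40 at d21 against P0 (adjusted p = 1.68e-09, edgeR). The rise at d21 against d12 (1.10 ± 0.38, adjusted p = 0.0195, edgeR) was lost without any 1 of 4 libraries. One of these, JB6 replicate 1 of d21, held 379.7 CPM against 34.0, 46.3 and 51.8 CPM in the other 3, and without it the difference was 0.08 (adjusted p = 0.823, edgeR). Without the others it was 0.89 to 1.01 (adjusted p = 0.0574 to 0.0936, edgeR).

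Rian followed Meg3 with a smaller range. Its level was 791 ± 497 CPM (SD, n = 4) in ESC, 329 ± 169 CPM (SD, n = 4) at d12, 447 ± 254 CPM (SD, n = 4) at d21, 280.01 ± 57.4 CPM (SD, n = 6) at E13.5 and 1066 ± 152 CPM (SD, n = 7) at P0. The ESC and P0 ranges overlapped because of ESC JB6 replicate 2, at 1510 CPM, and the lower 3 stages overlapped with each other. Rian fell by 1.45 ± 0.18 at d12 against ESC (adjusted p = 2.12e-07, edgeR), and by 1.21 without ESC JB6 replicate 2 (adjusted p = 6.03e-07, edgeR). It rose by 2.02 ± 0.15 at P0 against E13.5 (adjusted p = 2.75e-11, edgeR) and was lower by -1.37 ± 0.17 at d21 against P0 (adjusted p = 1.08e-07, edgeR). The d12 and E13.5 levels differed by 0.18 ± 0.16 (adjusted p = 0.318, edgeR). The d21 against d12 rise (0.47 ± 0.18, adjusted p = 0.0335, edgeR) was lost without mitochondrial genes (0.35, adjusted p = 0.114, edgeR) and without 1 of 5 libraries in turn, and was smallest without d21 JB6 replicate 1 (0.18, adjusted p = 0.456, edgeR).

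Mirg differed from Meg3 and Rian in its order of stages. Its level was 94.2 ± 63.9 CPM (SD, n = 4) in ESC, 38.2 ± 14.3 CPM (SD, n = 4) at d12, 34.1 ± 12.8 CPM (SD, n = 4) at d21, 28.0 ± 11.2 CPM (SD, n = 7) at P0 and 10.1 ± 2.5 CPM (SD, n = 6) at E13.5. All stages but E13.5 overlapped, and E13.5 lay below every library of the others. Mirg fell by 1.30 ± 0.21 at d12 against ESC (adjusted p = 8.16e-06, edgeR) and rose by 1.53 ± 0.19 at P0 against E13.5 (adjusted p = 1.23e-07, edgeR). It was higher in culture at d12 than at E13.5 by 1.96 ± 0.21 (adjusted p = 1.11e-08, edgeR). It did not pass at d21 against P0 (0.27 ± 0.19, adjusted p = 0.196, edgeR), where Meg3 and Rian were lower in culture. Begain, for comparison, was at 0.802 ± 0.316 CPM (SD, n = 4) in ESC and 32.9 ± 4.4 CPM (SD, n = 7) at P0, and it was higher at P0 than at E13.5 by 2.80 ± 0.17 (adjusted p = 6.69e-13, edgeR) and lower at d21 than at P0 by -2.26 ± 0.19 (adjusted p = 1.72e-10, edgeR). It rose by 2.56 ± 0.31 at d12 against ESC (adjusted p = 8.57e-08, edgeR), where it met the minimum only through d12, with a mean of 4.75 read bases in ESC. Begain stood at 6.01 ± 2.72 CPM (SD, n = 4) at d12, 6.78 ± 1.18 CPM (SD, n = 4) at d21 and 4.95 ± 1.24 CPM (SD, n = 6) at E13.5, all overlapping.

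**Figure D3:**
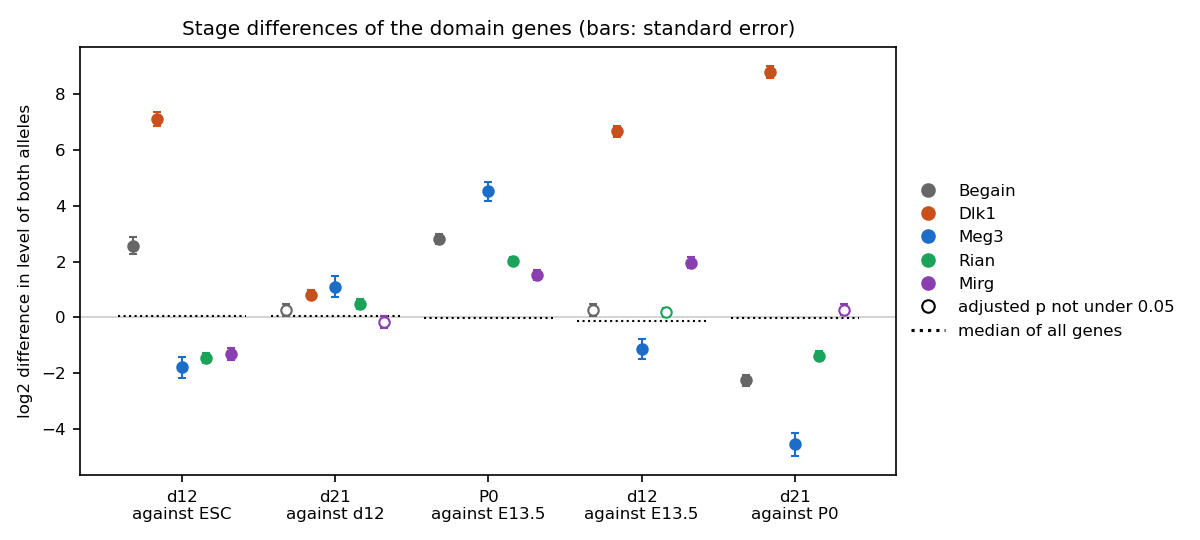
Log2 difference between stages in the level of both alleles, with its standard error, for each domain gene that met the minimum count, beside the median over all genes (dotted line). Filled points passed at an adjusted p of 0.05. Dlk1 stands at 7.13, 6.67 and 8.78 in the contrasts of culture with stem cells and with tissue, where it met the minimum only through culture. Meg3 stands at 4.52 at P0 against E13.5.

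The noncoding RNAs did not keep a fixed proportion to each other. The ratio of Meg3 to Rian read bases was 0.111 to 0.162 at d12 and 0.228 to 0.531 at E13.5, and 1.91 to 2.28 at P0. Because the number of strain differences per gene differs, only the change of a ratio between stages carries meaning. The log2 ratio was higher at P0 than at E13.5 by 2.57 (7 and 6 libraries, no overlap, exact two-sided permutation p = 0.00117, the smallest possible here, adjusted 0.0117). It was lower at d12 than at E13.5 by -1.29 (exact permutation p = 0.00952, adjusted 0.019) and lower at d21 than at P0 by -3.44 (exact permutation p = 0.00606, adjusted 0.019), without overlap in either.
The ratio of Mirg to Rian ran the other way. It was 0.0899 to 0.171 at d12, 0.0653 to 0.107 at d21, 0.0286 to 0.0411 at E13.5 and 0.0175 to 0.0353 at P0. It was higher at d12 than at E13.5 by 1.77 (exact permutation p = 0.00952, adjusted 0.019) and higher at d21 than at P0 by 1.71 (exact permutation p = 0.00606, adjusted 0.019), without overlap, and lower at P0 than at E13.5 by -0.54 with overlap (exact permutation p = 0.0175, adjusted 0.0291). The last difference was not alike in the crosses: BJ1 had 0.0286 to 0.0411 at E13.5 and 0.0175 to 0.0251 at P0, without overlap, and JB6 had 0.0310 to 0.0403 and 0.0289 to 0.0353, with overlap. The 4 tests of d12 against ESC and d21 against d12 gave exact permutation p-values of 0.0571 to 0.743, where 0.0286 was the smallest possible. These 10 tests were chosen after the values were seen. Beside Rian, Meg3 thus took a larger and Mirg a smaller part at E13.5 than at d12, and at P0 than at d21.

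**Figure D4:**
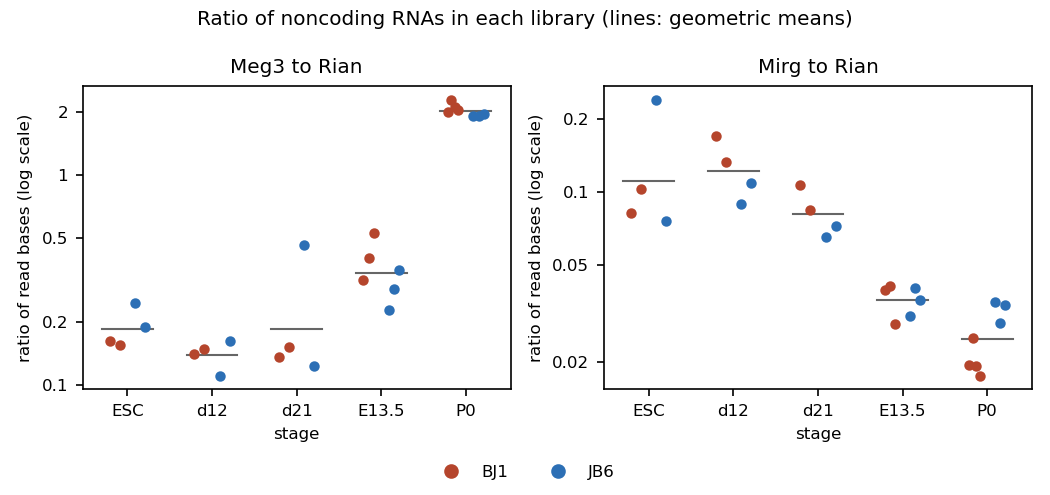
Ratio of Meg3 to Rian (left) and of Mirg to Rian (right) in read bases of both alleles, 1 point per library on a log scale, by stage and cross, with lines at geometric means. Meg3 to Rian is 1.91 to 2.28 at P0 and at most 0.531 elsewhere, and Mirg to Rian is at most 0.0411 in tissue and at least 0.0653 in culture.

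The reciprocal crosses were then compared in level. In ESC, 2 of 3 domain genes tested passed, beside 1.86% of all genes (173 genes, and 2187 without JB6 replicate 2). BJ1 was lower than JB6 for Rian, with 419 and 507 CPM against 726 and 1510 CPM (log2 difference -1.23 ± 0.26, adjusted p = 0.0127, edgeR), and for Mirg, with 34.3 and 52.5 CPM against 175 and 115 CPM (-1.75 ± 0.30, adjusted p = 0.0024, edgeR). Without the JB6 library that stood apart both still passed (Rian -0.75, adjusted p = 0.0359, and Mirg -2.10, adjusted p = 9.19e-05, edgeR). Without BJ1 replicate 1 neither passed (adjusted p = 0.129 and 0.0568, edgeR), and without BJ1 replicate 2 Rian did not (0.0654, edgeR).
At d12, 2 of 5 passed, beside 3.65% of all genes: Rian was lower in BJ1 (-1.26 ± 0.26, adjusted p = 0.00896, edgeR), with 189 and 193 CPM against 401 and 534 CPM, and Begain was higher in BJ1 (1.14 ± 0.31, adjusted p = 0.0461, edgeR), with 7.21 and 9.26 CPM against 3.402 and 4.18 CPM. The Begain call was lost with the replicate block (adjusted p = 0.0742, edgeR) and without any 1 library (0.114 to 0.242, edgeR), and the Rian call without BJ1 replicate 1, BJ1 replicate 2 or JB6 replicate 2 (0.0591, 0.121 and 0.111, edgeR). At d21, 1 of 5 passed, beside 0.236% of all genes: Dlk1 was higher in BJ1, with 569 and 478 CPM against 278 and 182 CPM (1.23 ± 0.23, adjusted p = 0.020, edgeR), but not without any 1 library (0.0548 to 0.118, edgeR). Meg3 and Rian were lower in BJ1 at d21 by -2.34 ± 0.54 (adjusted p = 0.0825, edgeR) and -1.10 ± 0.26 (adjusted p = 0.078, edgeR), and they passed in DESeq2 (adjusted p = 0.0144 and 0.0093). Meg3 was -0.46 without JB6 replicate 1.
In tissue, 0 of 4 domain genes passed at E13.5, beside 3.06% of all genes, and 0 of 4 at P0, beside 0.0185%. With an unadjusted p under 0.05 there was 1 of them, Mirg at P0, with 17.1 to 23.5 CPM in BJ1 and 32.7 to 46.3 CPM in JB6 (-1.03 ± 0.23, adjusted p = 0.156, edgeR), and DESeq2 called it (adjusted p = 0.0214). Of the 9 tests of a noncoding RNA between crosses in culture, 3 passed, all lower in BJ1. Dlk1 at d12 did not pass (0.35 ± 0.22, adjusted p = 0.397, edgeR).

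Of 17 further chromosome 12 genes around the domain, 16 were in the tables and 12 to 14 were tested per stage. For parental bias, 0 passed in ESC and at E13.5, and 1 at d12, 2 at d21 and 1 at P0 passed, all as paternal. Of all genes tested, 0.483% at d12, 0.326% at d21 and 0.317% at P0 passed as paternal. Rtl1, a retrotransposon-derived gene between Meg3 and Rian, passed at d21 (log2 difference -3.85 ± 0.78, adjusted p = 0.00174, edgeR). It met the minimum only through BJ1, with a mean of 41.5 read bases per library against 6 in JB6. Its maternal counts were 11 of 42 and 6 of 41 read bases in BJ1 and 0 of 9 and 0 of 3 in JB6. Maternal read bases were thus seen in the BJ1 cultures, but the 12 read bases of JB6 were too few to tell whether the crosses differed. Rtl1 had no read base in ESC or at E13.5. Dio3os, a noncoding neighbour of the deiodinase gene Dio3, passed at d12 (-1.45 ± 0.32, adjusted p = 0.000544, edgeR), with 22 maternal of 62 read bases in BJ1 and 20 of 102 in JB6. It did not pass at d21, where 46 of 75 read bases in BJ1 and 30 of 82 in JB6 were maternal. Wars, a tRNA synthetase gene, passed at d21 (-0.20 ± 0.05, adjusted p = 0.0109, edgeR) and at P0 (-0.25 ± 0.03, adjusted p = 1.93e-08, edgeR), where its maternal share was 45.7% ± 1.1 (SD, n = 7). In level, 2 of 13 neighbours rose and 8 fell at d12 against ESC, 4 rose and 1 fell of 12 at P0 against E13.5, and 3 were higher and 8 lower of 12 at d21 against P0. Their median log2 differences were -0.75, 0.16 and -0.52, beside 0.06, -0.02 and -0.04 over all genes. Of all genes, 40.6% rose and 37.4% fell in the first of these contrasts, 37.9% and 38.8% in the second, and 40.3% and 41.1% were higher and lower in the third.

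Genes that act on imprints and on Notch signals were counted beside the domain. The counts for these lists and for the neuron markers below are to be read against all genes. Of all genes, 40.6% rose and 37.4% fell at d12 against ESC, and 37.9% rose and 38.8% fell at P0 against E13.5. At d21 against P0, 40.3% of all genes were higher and 41.1% lower. Of 18 genes of imprint maintenance and DNA methylation tested at d12 against ESC, 3 rose and 15 fell, with a median log2 difference of -2.21 beside 0.06 over all genes. At d12 itself 16 of the 18 met the minimum, so the others entered only through ESC. Dnmt3l, a cofactor of DNA methylation in germ cells, fell by 7.95 ± 0.39 (adjusted p = 7.8e-09, edgeR) and Dppa3, which protects maternal marks in the zygote, fell by 6.63 ± 0.49 (adjusted p = 1.13e-09, edgeR), while Tet3 rose by 2.30 ± 0.20 (adjusted p = 4.52e-10, edgeR). At P0 against E13.5, 2 of 16 rose and 10 fell, and at d21 against P0, 2 were higher and 8 lower of 16. Zfp57, which binds methylated imprinting control regions, was higher at P0 than at E13.5 by 1.41 ± 0.15 (adjusted p = 2.16e-08, edgeR) and lower at d21 than at P0 by -2.80 ± 0.19 (adjusted p = 9.45e-12, edgeR).
Of 16 Notch pathway genes tested at d12 against ESC, where Dlk1 rose, 12 rose and 2 fell, with a median of 1.55 beside 0.06 over all genes. In ESC itself only 12 genes of this list met the minimum. Some of the 16 thus entered only through d12, where they were higher, and their direction was set by that filter. The Notch target Hes5 rose by 9.09 ± 0.46 (adjusted p = 6.15e-14, edgeR) and Notch4 fell by 2.74 ± 0.26 (adjusted p = 2.34e-09, edgeR). At P0 against E13.5, 2 of 17 rose and 13 fell, with a median of -1.38 beside -0.02. Dlk2, the closest relative of Dlk1, rose there by 4.60 ± 0.32 (adjusted p = 1.8e-11, edgeR), and Hes1 fell by 3.22 ± 0.22 (adjusted p = 9.2e-12, edgeR). At d21 against P0, 10 of 17 were higher and 1 lower. Hes1 was higher in culture by 3.35 ± 0.24 (adjusted p = 1.09e-11, edgeR), and Dll1, a classical Notch ligand, was lower by -0.95 ± 0.17 (adjusted p = 3.08e-05, edgeR).
Neuronal markers moved with Meg3 in tissue. At P0 against E13.5, 8 of 10 tested neuron markers rose and 1 fell, with a median of 2.06 beside -0.02 over all genes, and the summed level was 1576 to 2780 CPM at E13.5 and 11246.5 to 12059.8 CPM at P0. It was 183 to 618 CPM at d12 and 1385 to 2000.4 CPM at d21, and 351 to 520 CPM in ESC. At d21 against P0, 0 of 10 were higher and 10 lower, though only 7 of the 10 met the minimum at d21 itself. The part of neuronal RNA in the levels of Meg3, Rian and Begain was not tested.

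The genes whose level over the 25 libraries was most like that of each domain gene were taken from 11136 genes by Pearson's r of log2(CPM + 1). The libraries share stages, so r describes the order of stages more than anything else. For Dlk1 they were Surf4 (r = 0.981), Tnfaip2 (0.9802) and Il11ra1 (0.9800), and for Begain they were Gm88 (0.9796), Wipf3 (0.979) and Clec2l (0.977). For Meg3 they were Gnai1 (0.963), Dgkq (0.956) and Fam163b (0.946). For Rian they were Mpv17l (0.866), Rgs11 (0.865) and Meg3 (0.863), and for Mirg they were Tpd52 (0.864), H2-Aa (0.855) and Def6 (0.855). Within the domain, r was 0.863 between Meg3 and Rian, 0.507 between Rian and Mirg and 0.089 between Meg3 and Mirg. Dlk1 had r of -0.594 with Meg3, -0.425 with Rian and 0.196 with Mirg. Of the 3 nearest genes of each, only those of Rian held another domain gene.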

How the data were processed

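The deposited tables give raw counts of maternal and paternal read bases per gene for each library, summed by the authors on the sense strand over strain differences, from stranded mRNA libraries. Per the submitters' processing notes, CASAVA 1.8.2, Novoalign, HTSeq and edgeR were used with build mm9, and per the file headers bases were called with SAMtools mpileup 0.1.18. The members and lists were chosen with earlier results of these data known.

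Each allele's count was fitted in edgeR 4.0.16 (R 4.3.3) with a term per library, a strain term and a parental term, within a stage and, for differences between stages, jointly. Levels were fitted on the sum of both alleles with a term per stage and cross. Genes needed a mean of 20 read bases, in each stage for parental differences and over both stages together for levels. The p-values were adjusted by Benjamini-Hochberg over all genes tested, and the SE is the log2 difference over the square root of F. Libraries held 5192382 to 8618253 read bases. Several read bases can come from 1 molecule, so limits from a count of 0 (3 counts over the total) cover counting error only. Named genes were the 5 members, the 3 genes nearest each by r, neighbours that passed for parental bias, and of other lists up to 2 passing genes per direction and contrast, by size. Some genes of the lists are not reported here. Alternatives used DESeq2 1.42.0, limma 3.58.1 (pseudocount 0.5), other filters and scalings, counts divided by 3, a replicate block and leaving out each library. The fits were tested on simulated data. Ratios were tested with scipy 1.17.1. Libraries of the E14 line were not analysed here.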

Additional observations from a re-analysis of the deposited data

Results flagged for a closer look

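Outliers were looked for in the only group of a stage and cross with 4 or more libraries, BJ1 at P0. There the lowest Rian maternal share, 99.8%, lay far from the other 3 for the range of that group. Chance flags about 1 in 20 of the quantities looked at.

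The maternal share differed between the crosses, by the strain term of the fit, for Rian at all 5 stages, with log2 values of 2.57 in ESC, 1.30 at d12, 1.74 at d21, 1.44 at E13.5 and 2.94 at P0. For Dlk1 it differed at d12 (1.42) and d21 (1.53), for Meg3 at d12 (-2.64) and E13.5 (1.79), and for Mirg at d12 (-0.67) and P0 (1.497). Each of the Meg3 and Mirg calls was lost in DESeq2 and without some single libraries. The strain term passed for 34.4% (d21) to 48.2% (P0) of all genes, so such a difference is common here.

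Parental bias differed between stages, by the joint fit, for Rian at d12 against ESC (-1.34), at P0 against E13.5 (1.77) and at d21 against P0 (-1.47). For Mirg it differed at d12 against ESC (-4.04), at d12 against E13.5 (-3.27) and at d21 against P0 (-3.25). The calls for Rian at d12 against ESC and at d21 against P0, and for Mirg against tissue, were not kept under every alternative.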

How the results depend on the processing

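Of 1411 values for a domain gene under an alternative, 1296 kept direction and side of the threshold, 72 no longer passed, 11 newly passed and 32 changed sign, and the causes were not tested. Replicate numbers did not pair the samples (r of same-numbered deviations -0.373 to 0.142).

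The number of domain genes that passed changed as follows. With limma on log2 ratios it was 2 for parental bias at d12, 2 for strain at d12 and 1 for the difference of d12 against ESC. With DESeq2 it was 2 for strain at d12, 1 for strain at E13.5, 3 between crosses at d21 and 1 between crosses at P0. With counts divided by 3 it was 2 for strain at d12, 1 for strain at P0, 1 for the difference of d12 against ESC, 0 for d12 against E13.5, 1 for d21 against P0 and 1 between crosses at d12. With the replicate block it was 1 for strain at P0, 1 for the difference of d12 against ESC, 1 for d21 against P0 and 1 between crosses at d12, and it changed no other count of domain genes by over 1.5 times. With no minimum mean it was 1 for strain at P0, 1 between crosses at d12 and 1 between crosses at E13.5. With female libraries only it was 1 for strain at E13.5, 1 for strain at P0, 1 between crosses at E13.5 and 1 between crosses at P0. With a scaling factor for each allele it was 1 for strain at P0, and with only the 2 stages fitted it was 1 for d12 against ESC.

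Leaving out each library in turn gave 2 to 4 for strain at d12, 1 to 2 at E13.5 and 1 to 3 at P0, 1 to 2 for the difference of d12 against ESC and of d21 against P0, 1 to 3 for expression at d21 against d12, and between crosses 0 to 2 in ESC, 0 to 1 at d12, 0 to 2 at d21 and 0 to 1 at E13.5.

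Signs changed only for values that had not passed. The strain term of Meg3 in ESC was 0.0357 in DESeq2 and 0.37 with counts divided by 3. With counts divided by 3 the difference in parental bias was 0.38 for Meg3 at P0 against E13.5 and -0.0149 for Rian at d12 against E13.5, and with limma it was -0.13 for Meg3 at d21 against P0. Leaving out each library gave ranges across 0. For the strain term they were -0.40 to 0.98 for Meg3 and -2.51 to 1.00 for Mirg in ESC, and for Begain -0.0440 to 0.82 at d12, -0.0662 to 0.22 at d21 and -0.21 to 0.0440 at E13.5. For the difference in parental bias, Meg3 had -1.55 to 1.54 (d12 against ESC), -1.51 to 0.37 (P0 against E13.5), -0.19 to 3.14 (d12 against E13.5) and -0.0449 to 0.43 (d21 against P0), Begain had -0.70 to 0.17 (d21 against d12) and -0.64 to 0.23 (d12 against E13.5), and Rian had -0.33 to 0.61 and -0.30 to 0.64 in the same contrasts. For expression they were -0.40 to 0.0569 for Mirg at d21 against d12, and between crosses -0.0653 to 0.35 for Begain at d21, -0.0304 to 0.63 for Meg3 at E13.5 and -0.15 to 0.0797 for Begain at P0.

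The count of all genes that passed also moved by over 1.5 times, and is given with its range over the alternatives. Between crosses it was 173 (55 to 2187) in ESC, with the highest value without ESC JB6 replicate 2, 391 (21 to 767) at d12, 27 (5 to 104) at d21, 318 (46 to 801) at E13.5 and 2 (0 to 48) at P0. For parental bias it was 126 (75 to 199) in ESC, 184 (93 to 179) at d12 and 153 (98 to 186) at d21. For strain it was 4010 (2318 to 4385), 3712 (1650 to 3823), 3799 (1691 to 4177), 4588 (2876 to 4860) and 5012 (3141 to 5372) in the order ESC, d12, d21, E13.5 and P0. For differences in parental bias it was 29 (11 to 51) at d12 against ESC, 5 (2 to 7) at d21 against d12, 13 (6 to 14) at P0 against E13.5, 84 (52 to 91) at d12 against E13.5 and 88 (58 to 99) at d21 against P0.

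Pairing the crossed numbers, chosen after seeing the data, left 3, 1 and 2 domain genes for parental bias, strain and cross in ESC, and 2 for the difference of d12 against ESC. Joining features that hold a member was not run, as there were 0 of them. Dlk1 in tissue and Begain in ESC were limited by depth.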
